A study of Mus musculus with 8 samples.

Results

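A first exon is the stretch of RNA that begins at a transcription start site, and a gene with several first exons can be transcribed from several starts. The first exons described here are the annotated exons that are the first exon in every multi-exon transcript holding them, in protein-coding genes of GENCODE M21 on mm10, and that held 40 or more counts over the 8 libraries together. They number 1913, in 1829 genes, of 496288 exon IDs counted in all. Of the 83030 annotated first exons of protein-coding genes, 10124 held at least 1 count. The exons were chosen by their total count over the 8 libraries, both groups together: 25 of them held exactly 40 counts, and 28 first exons with 39 counts fell just outside. Their median total was 144 counts (quartiles 68 and 407, highest 134330), and together they held 1327308 counts, 3.70% of the counts matched to the annotation. In 78 genes there were 2 or more such exons: 73 genes had 2, 4 genes had 3 and 1 gene had 4.

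The libraries came from fully grown mouse oocytes at the germinal vesicle stage, which have finished growth and are paused in meiotic prophase with the nucleus still visible. The 4 control libraries were Kiaa1429F/+;Zp3-Cre oocytes, which carry 1 floxed and 1 intact allele of Kiaa1429 together with the Cre transgene, and the 4 cKO libraries were Kiaa1429F/F;Zp3-Cre oocytes, in which both alleles are floxed. All females were C57BL/6 and given as 20 days old (3 weeks in another label), received 5 IU of PMSG, and gave oocytes of at least 70 µm 48 h later, about 20 per library. The Zp3 promoter drives Cre in growing oocytes, so the deletion arises during growth and somatic cells of the ovary keep the gene. Which animals gave which library is not stated beyond 4 separate experiments, so the p-values speak only of how these libraries scatter.

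Kiaa1429, whose official symbol is Virma, encodes the large scaffold of the methyltransferase complex that places N6-methyladenosine (m6A) on messenger RNA. Transcription starts are set by core promoters: the TBP family, TFIIA, TFIIB and the TAF proteins recognise them, RNA polymerase II begins there, and the new 5' end receives a cap. Choosing another start changes the 5' untranslated region, and sometimes the N-terminus of the protein, while the rest of the message stays the same. Growing oocytes are known for starts that other tissues do not use, and transcription across imprinted loci from such starts belongs to the known biology of the oocyte.

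Virma had no first exon among the 1913. Summed over all its exon IDs, it fell from 67.4 ± 11.1 CPM (counts scaled to a library total of 1e6) in controls to 19.3 ± 3.23 in cKO libraries (SD, n = 4 each), a log2 fold change of -1.81 with SE 0.18 (edgeR, adjusted p = 1.02e-06). The depth on exon IDs was 4247471 to 4790038 counts in the controls and 4399190 to 5064008 in the cKO libraries, so 3 counts correspond to 0.565 to 0.779 CPM. Over the 14052 exons that passed the filter on low counts, log2 CPM correlated at 0.951 to 0.980 within groups and 0.808 to 0.859 between groups. The 10 oocyte markers, all detected, summed to 39145 ± 6308 CPM in controls and 20179 ± 1899 in cKO libraries. Most of this sum lay on Bmp15 (means 18653 and 7277 CPM) and Gdf9 (13477 and 8067 CPM). Zp3 (234 and 225 CPM) and Figla (23.0 and 21.0 CPM) had similar means in both groups. Zp2 alone had a higher mean in cKO libraries (4.78 and 5.41 CPM). The 10 cumulus and granulosa markers, all with a count in at least 1 library, summed to 197 to 350 CPM in controls and 396 to 671 in cKO libraries, so the groups did not overlap. Amh (means 0.311 and 0.528 CPM) and Cyp11a1 (0.189 and 0.146 CPM) lay below the level of 3 counts and were at 0 in some libraries. The mean levels of Nr5a2 (138 and 320 CPM), Inha (65.5 and 172 CPM) and Ptgs2 (3.33 and 24.8 CPM) were higher in cKO libraries, while those of Fshr (19.5 and 6.20 CPM), Cyp19a1 (27.2 and 12.5 CPM) and Foxl2 (1.58 and 0.852 CPM) were lower. The Foxl2 mean in cKO libraries was close to the level of 3 counts. The 6 theca, stroma and vessel markers summed to 3.97 to 7.05 and 1.28 to 3.16 CPM. Of the 7 immune and blood markers 5 were at 0 (Ptprc, Adgre1, Cd74, Hba-a1 and Hbb-bs), and the sum went from 0.238 to 0.660 CPM in controls to 5.27 to 9.17 in cKO libraries. C1qa had a mean of 6.95 CPM in cKO libraries and 0.175 CPM in controls, and Cd68 0.667 and 0.238 CPM. Their part in the first-exon results was not tested. In such bulk samples, fewer cells of a type and less RNA per cell cannot be told apart.

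Counting left most reads unassigned, which bears on every value below. Reads that met more than 1 exon ID were set apart as ambiguous and made up 73.8 ± 1.07% of reads in controls and 79.3 ± 0.751% in cKO libraries, while reads outside every exon ID made up 11.0 ± 0.883% and 5.77 ± 0.531%. The total behind these percentages is the reads counted for an exon ID, ambiguous or outside every exon ID, and no other reads. The counting mode is not stated. Under HTSeq's default a read pair that runs from a first exon into an intron still counts for the exon, so spliced and unspliced RNA cannot be told apart here. The libraries do not mark strand, and 221 of the 1913 exons overlap another gene.

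For the genes below whose first exons changed against each other in counts, the sequence in front of the annotated starts is shown. The 100 bases before each tested start are printed where RefSeq holds a start within 50 bases. An untested start of Lipt1 is left out. The sequences are RefSeq promoter sequences of GRCm38.p6, 5' to 3' on the gene's strand, and end at the base before the exon as annotated. That exon start lies 36 bases from the RefSeq start for Vamp8, 38 for Fmc1, 4 for the downstream Pak1 start, 10 for Chst7 and 7 for Hnrnpc, and coincides with it for the others printed. Capitals mark matches on either strand to TATAAA, the TATA box, to the CCAAT box and to GGGCGG, the GC box. A match on the other strand reads TTTATA for the first, ATTGG for the second and CCGCCC for the third. A start was counted once for each motif it held, whether or not matches overlapped. Among 27703 annotated first exons of protein-coding genes with a RefSeq start within 50 bases, 3.93% held TATAAA, 21.9% CCAAT and 41.1% GGGCGG in this window, and among the 888 such exons of the 1913 the shares were 4.05%, 24.5% and 43.2%. A match describes letters and is not evidence that a factor bound. The first sequence precedes the upstream start of Lmo1 (chr7:109175208-109175307, minus strand), a stretch of 77.0% GC with none of the motifs. The second precedes the upstream start of Vamp8 (chr6:72390704-72390803, minus strand), AT-rich and also without them. The third precedes the downstream start of Fmc1 (chr6:38534723-38534822, plus strand) and holds GGGCGG in 2 places. The fourth precedes the upstream start of Cpa1 (chr6:30639118-30639217, plus strand), and the fifth the outermost start of Lipt1 (chr1:37871638-37871737, plus strand), with a TATAAA on the other strand. The last pair precedes the upstream and the downstream start of Pak1 (chr7:97788441-97788540 and chr7:97842835-97842934, plus strand), with 3 and 2 GGGCGG.
Lmo1 upstream start: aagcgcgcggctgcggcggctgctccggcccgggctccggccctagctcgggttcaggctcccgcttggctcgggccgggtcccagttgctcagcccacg
Vamp8 upstream start: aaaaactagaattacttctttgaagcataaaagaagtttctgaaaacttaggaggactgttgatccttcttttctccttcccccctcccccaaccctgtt
Fmc1 downstream start: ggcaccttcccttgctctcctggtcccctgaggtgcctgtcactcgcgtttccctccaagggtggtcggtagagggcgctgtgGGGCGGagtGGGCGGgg
Cpa1 upstream start: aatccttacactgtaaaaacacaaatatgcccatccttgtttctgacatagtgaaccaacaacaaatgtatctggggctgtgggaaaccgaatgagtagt
Lipt1 outermost start: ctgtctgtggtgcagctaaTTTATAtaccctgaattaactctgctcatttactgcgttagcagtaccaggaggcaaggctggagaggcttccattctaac
Pak1 upstream start: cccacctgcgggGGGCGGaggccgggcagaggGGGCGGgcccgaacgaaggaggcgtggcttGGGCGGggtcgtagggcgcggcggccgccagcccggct
Pak1 downstream start: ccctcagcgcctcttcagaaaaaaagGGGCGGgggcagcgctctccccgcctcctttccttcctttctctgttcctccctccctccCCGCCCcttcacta

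In 11 genes the counts on the first exons changed against each other. The clearest cases were Lmo1 and Vamp8, where an upstream first exon took a far larger share of the first-exon counts in cKO oocytes. Counts lie anywhere in an exon, so a start here stands for an annotated first exon. The 5' ends of the RNA were not observed, and a change of transcription start was not tested. The comparison set each first exon against the gene's first exons as a whole and was possible for 68 exons in 34 genes, those with at least 2 first exons that passed edgeR's filter on low counts. A total of 6 exons rose and 7 fell, 8.82% and 10.3%. Over all 2289 exons tested in the same way, whatever their position in the gene, 9.35% rose and 9.00% fell, so the shares of first exons called lie near this background. The median log2 change of the 68 was 0.01 and that of all exons tested 0.00. The shares below are percentages of the counts on the gene's tested first exons.

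Lmo1 encodes a LIM-only protein that joins transcription factor complexes. Its upstream first exon (ENSMUSE00001376595, chr7:109174938-109175207, 270 bases, 22 of them coding) held 3, 7, 4 and 4 counts in the control libraries and 60, 44, 43 and 58 in the cKO libraries. Its share was 2.26%, 5.65%, 4.17% and 4.17% in controls and 39.2%, 28.4%, 35.5% and 28.9% in cKO libraries, with no overlap (log2 change between starts 2.99, SE 0.32, adjusted p = 7.65e-09). The downstream first exon, which starts 4688 bases further on (chr7:109169983-109170519), held 25.6 ± 2.91 CPM in controls and 22.0 ± 4.39 in cKO libraries and was not called (log2 fold change -0.22, SE 0.19, adjusted p = 0.359). The upstream exon alone went from 1.08 ± 0.432 to 10.7 ± 1.92 CPM, and the gene as a whole was not called (log2 fold change 0.26, adjusted p = 0.215).

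Vamp8 encodes a vesicle SNARE protein that acts in fusion of endosomes and secretory granules. Its upstream first exon (ENSMUSE00000698105, chr6:72390474-72390703, 230 bases, 3 of them coding) held 49, 26, 22 and 46 counts in controls and 88, 95, 108 and 107 in cKO libraries. The downstream one (ENSMUSE00000835196, chr6:72388262-72389911) went the other way, from 373, 315, 248 and 249 counts to 99, 91, 87 and 139. The upstream share therefore went from 7.63% to 15.6% in controls to 43.5% to 55.4% in cKO libraries (log2 change 2.19, SE 0.23, adjusted p = 7.33e-09). Both exons passed the test, the downstream one with a log2 change of -0.81 (SE 0.19, adjusted p = 0.0018). The gene as a whole fell (log2 fold change -0.92, SE 0.15, adjusted p = 8.58e-05), although its upstream start rose in level by a log2 fold change of 1.29 (SE 0.24).

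In Fancc, Fmc1 and Cpa1 the start that gained share did so while the level of the gene fell. Fancc encodes a subunit of the Fanconi anaemia core complex, which acts in repair of DNA crosslinks. Its main first exon (ENSMUSE00000861603, chr13:63497101-63497278) held 663, 517, 411 and 510 counts in controls and 66, 59, 42 and 86 in cKO libraries. The other, 87510 bases downstream and wholly non-coding (ENSMUSE00000857108, chr13:63409538-63409768), held 55, 35, 72 and 52 against 26, 32, 34 and 37. Both fell in level, the main one by a log2 fold change of -3.24 (SE 0.19) and the downstream one by -0.93 (SE 0.25), so that the downstream share went from 6.34% to 14.9% in controls to 28.3% to 44.7% in cKO libraries (log2 change 1.86, SE 0.26, adjusted p = 1.33e-06).

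Fmc1 encodes an assembly factor of mitochondrial ATP synthase. Its main non-coding first exon (ENSMUSE00000779306, chr6:38533502-38533711) held 582, 328, 399 and 511 counts in controls and 147, 124, 108 and 188 in cKO libraries, whereas the downstream one (ENSMUSE00000193083, chr6:38534823-38535010, 138 coding bases) held 51, 31, 12 and 39 against 28, 31, 20 and 41. The downstream share was 2.92% to 8.64% in controls and 15.6% to 20.0% in cKO libraries (log2 change 1.37, SE 0.31, adjusted p = 0.000983). This exon did not pass the test of its own level (log2 fold change -0.33, SE 0.32, adjusted p = 0.419).

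Cpa1, known as the gene of a digestive carboxypeptidase of the pancreas, showed the same arrangement. Its upstream first exon (ENSMUSE00000446278, chr6:30639218-30639528) fell from 51.4 ± 7.27 to 24.5 ± 5.74 CPM. The non-coding first exon 1123 bases downstream of it (ENSMUSE00000757768, chr6:30640341-30640741) had 35, 26, 27 and 32 counts in controls and 42, 40, 44 and 46 in cKO libraries. Its share of 10.2% to 14.4% in controls compared with 22.7% to 34.4% in cKO libraries (log2 change 1.13, SE 0.24, adjusted p = 0.00097).

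Pid1, which encodes an adaptor with a phosphotyrosine interaction domain, was the other gene in which both starts passed the test. The upstream exon (ENSMUSE00000951526, chr1:84364030-84364180) held 28, 34, 21 and 44 counts in controls and 6, 10, 8 and 12 in cKO libraries, and the downstream exon (ENSMUSE00000947053, chr1:84336034-84336173) 35, 18, 16 and 20 against 24, 21, 26 and 41. The upstream share was thus 44.4% to 68.8% in controls and 20.0% to 32.3% in cKO libraries (log2 change -1.26, SE 0.31, adjusted p = 0.00265). Over the same libraries the gene rose (log2 fold change 0.74, SE 0.13, adjusted p = 0.00026), and so did its last exon (log2 fold change 1.00). The downstream exon's call (log2 change 0.88, adjusted p = 0.029) was lost without any 1 of control libraries 2 and 4 and cKO libraries 1, 3 and 4, and with no filter on low counts.

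In the remaining 5 genes the minor start lost share in cKO oocytes. Parl encodes a rhomboid protease of the inner mitochondrial membrane. Its upstream non-coding exon (ENSMUSE00000845466, chr16:20301630-20301813) held 37, 42, 39 and 32 counts in controls and 7, 10, 2 and 10 in cKO libraries, a share of 9.44% to 16.9% against 1.42% to 6.17% (log2 change -1.58, SE 0.32, adjusted p = 0.000371). This exon passed the filter on low counts through the controls alone. Skap1 encodes an adaptor best known from T cells. Its upstream exon (ENSMUSE00000756402, chr11:96483782-96483899) held 26 to 30 counts in controls and 9 to 16 in cKO libraries, while the downstream start (ENSMUSE00000806113, chr11:96708235-96708690) held 144 to 187 and 162 to 228. The upstream share went from 14.4 ± 1.59% to 5.90 ± 0.578% (log2 change -1.25, SE 0.26, adjusted p = 0.00194).

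The other 3 of these genes rest on few counts. Chek1, the gene of the DNA damage checkpoint kinase CHK1, has a non-coding upstream exon (ENSMUSE00000941310, chr9:36726563-36727065) with 10 to 17 counts in controls and 3 to 7 in cKO libraries, a share of 5.90 ± 0.907% against 2.47 ± 0.836% (log2 change -1.23, SE 0.36, adjusted p = 0.0208). Pak1, the gene of a p21-activated kinase, has a downstream exon (ENSMUSE00000371348, chr7:97842935-97843141) with 11 to 15 counts in controls and 4 to 9 in cKO libraries, a share of 15.3 ± 5.44% against 5.60 ± 2.41% (log2 change -1.39, SE 0.45, adjusted p = 0.0262). Lipt1, which encodes a mitochondrial lipoyltransferase, has a short exon of 84 bases (ENSMUSE00000814478, chr1:37872562-37872645) whose share was 11.6% to 31.9% in controls and 4.35% to 14.9% in cKO libraries, the only one of the 11 shares plotted by start whose groups overlapped (log2 change -1.28, SE 0.35, adjusted p = 0.00644). Another first exon of Lipt1 (ENSMUSE00000777321, chr1:37872374-37872588) overlaps this short one, held 58 counts in all and was not tested, so reads in the overlap counted for neither. The Chek1 call was lost without any 1 of control libraries 1 and 4 and cKO libraries 1, 3 and 4, the Pak1 call without control library 1 or cKO library 3 or 4, and the Lipt1 call without cKO library 4. All 3 calls were also lost with no filter on low counts, and the Pak1 call with limma voom.

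**Figure D1:**
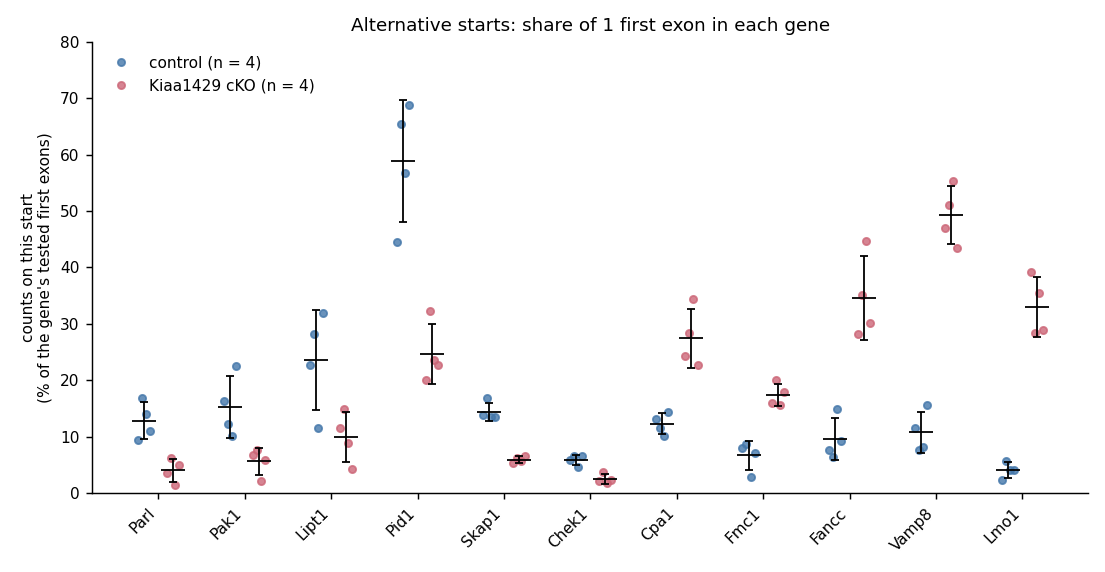
Share of 1 first exon in each of the 11 genes whose first exons changed against each other in counts. The vertical axis is the percent of the counts on the gene's tested first exons, each point is a library, and bars are the mean and SD of 4 libraries; in Lmo1 the control points lie at 2.26% to 5.65% and the cKO points at 28.4% to 39.2%.

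Against all tested exons of the gene, rather than its other starts, 52 first exons rose in usage and 69 fell in cKO oocytes. Usage is the exon's counts as a percent of the counts on all tested exons of its gene, and 1046 of the 1913 first exons could be tested, those that passed the filter in genes with at least 2 exons that did. The called shares, 4.97% higher and 6.60% lower, lie near those over all 6931 exons of the series tested for usage, 6.31% higher and 6.95% lower. Internal exons of protein-coding genes gave 137 higher and 175 lower of 2198, and last exons 160 higher and 147 lower of 2555. The median log2 usage change was -0.02 for first exons. By usage percent alone, 92 first exons were higher and 126 lower in every cKO library than in every control library, and 828 overlapped. These are 8.80% and 12.0% of those tested, against 14.4% higher and 14.4% lower over all 6931 exons.

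Most first exons called for usage were called in the same direction for level. Of the 52 first exons with higher usage, 32 also rose in level, 1 fell and 19 were not called for level, while their genes were higher in 6 cases, lower in 25 and not called in 21. Of the 69 with lower usage, 54 fell in level, 1 rose and 14 were not called, while their genes were higher in 21 cases, lower in 22 and not called in 26. Usage, level and gene sums are computed from the same counts and are given here side by side only. The test sets an exon against the gene's exons as a whole, itself included, and takes the gene's change as known, so the sizes are understated where the exon holds much of the gene.

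Chst7, Fbxl22, Dlat and Tigd2 were 4 of the largest rises. In each, the only other tested exon was the last exon, so usage sets the first exon against the last alone. A rise in usage there means by construction that the last exon fell relative to the first. In level, the last exon fell while the first exon rose or was not called. Chst7 encodes a sulfotransferase that acts on carbohydrate chains. Its first exon (ENSMUSE00000326983, chrX:20059560-20061208, 1452 of 1649 bases coding) held 36, 38, 34 and 28 counts in controls and 68, 39, 63 and 79 in cKO libraries, whereas its last exon held 4633, 3457, 2378 and 4455 against 1331, 1442, 1241 and 1383. The first exon's usage was low throughout and did not overlap, at 0.625% to 1.41% in controls and 2.63% to 5.40% in cKO libraries (log2 usage change 2.26, SE 0.26, adjusted p = 4.55e-07). The level of the exon rose as well (0.67 in log2, SE 0.24, adjusted p = 0.0257).

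Dlat encodes the acetyltransferase subunit of the pyruvate dehydrogenase complex. Its first exon (ENSMUSE00000334265, chr9:50659191-50659780) held 12, 25, 23 and 25 counts in controls and 46, 35, 47 and 40 in cKO libraries, and its last exon 795 to 914 against 326 to 438. Usage rose from 2.38 ± 0.711% to 10.1 ± 2.27% (log2 usage change 2.07, SE 0.25, adjusted p = 9.65e-07). Fbxl22 encodes an F-box protein, a class of ubiquitin ligase adaptors. Its first exon (ENSMUSE00000352168, chr9:66514219-66514593) held 23 to 41 counts in controls and 45 to 58 in cKO libraries, which did not pass the test of level (log2 fold change 0.36, SE 0.23, adjusted p = 0.215), while usage rose from 7.33 ± 1.40% to 31.7 ± 8.55% (log2 usage change 2.08, SE 0.25, adjusted p = 7.93e-07). Tigd2, named for its descent from a Tigger transposon, had a usage of 11.7% to 20.5% in controls and 41.4% to 54.2% in cKO libraries for its non-coding first exon (chr6:59208870-59209181; log2 usage change 1.68, SE 0.24). The last exons fell by log2 fold changes of -1.40 in Dlat, -2.14 in Fbxl22 and -1.91 in Tigd2.

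The 100 bases before the starts of Chst7 (chrX:20059460-20059559, plus strand) and of Hnrnpc (chr14:52104029-52104128, minus strand), which is described below among the falls, are shown. They were picked because each holds a CCAAT box, in capitals, so they say nothing about the other exons. Among the other largest changes, Fbxl22, Dlat, Npffr2, Tmem114, Sugt1 and Sart1 held no CCAAT in this window. It was found before 26.7% of starts with higher usage and 23.5% of those with lower usage.
Chst7 start: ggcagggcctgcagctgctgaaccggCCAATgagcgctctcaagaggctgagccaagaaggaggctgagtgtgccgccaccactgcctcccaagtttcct
Hnrnpc start: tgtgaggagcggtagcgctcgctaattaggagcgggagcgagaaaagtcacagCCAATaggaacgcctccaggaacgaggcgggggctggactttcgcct

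Tmem114, Npffr2 and the exons of Lmo1, Vamp8, Fancc and Fmc1 already described complete the 10 largest rises. Tmem114 encodes a transmembrane protein related to the claudins. Its first exon (ENSMUSE00000402122, chr16:8424436-8425136) held 16, 17, 11 and 7 counts in controls and 49, 42, 57 and 51 in cKO libraries, while its last exon held 201 to 280 and 279 to 344. This was a rise of the first exon itself, its level changing by 1.77 in log2 (SE 0.27, adjusted p = 6.66e-05) and a usage change of 1.47 (SE 0.24, adjusted p = 9.6e-05). Npffr2 encodes a receptor for neuropeptide FF. Its first exon (ENSMUSE00000513477, chr5:89527429-89527536) held 81 to 130 counts in controls and 75 to 102 in cKO libraries, so usage rose from 5.79 ± 1.05% to 17.4 ± 2.37% as the last exon fell (log2 usage change 1.59, SE 0.18, adjusted p = 1.01e-07). With last exons left out of the comparison, its call was lost (adjusted p = 0.722).

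Plcb1 showed the largest fall in usage among the named exons. It encodes a phospholipase C that splits phosphatidylinositol bisphosphate. The exon concerned is a non-coding start of 96 bases deep in the gene (ENSMUSE00001362901, chr2:135249173-135249268), 463106 bases from the gene's outermost start. It held 98, 75, 105 and 82 counts in controls and 8, 2, 1 and 4 in cKO libraries, 360 against 15 in all. The exon thus passed the filter on low counts through the controls alone. Its usage was 5.19% to 11.7% in controls and 0.227% to 1.66% in cKO libraries, with a log2 usage change of -3.31 (SE 0.37, adjusted p = 7.45e-08), and the last exon downstream of it (chr2:135255046-135255513) fell by -1.37.

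Genes whose first exon fell while the gene as a whole was not called included Rspo2, Sugt1 and Cyb5r3. Rspo2 encodes an R-spondin, a secreted protein that strengthens Wnt signalling and is made by oocytes. Its non-coding first exon (ENSMUSE00000501657, chr15:43170114-43170818) held 439, 523, 446 and 296 counts in controls and 143, 136, 203 and 190 in cKO libraries, and its last exon 3812 to 5208 against 4209 to 5533. First-exon usage fell from 7.84 ± 1.54% to 2.99 ± 0.273% (log2 usage change -1.37, SE 0.18, adjusted p = 2.45e-07), and the gene was not called (log2 fold change -0.19, adjusted p = 0.258).

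Sugt1 encodes a co-chaperone that acts with HSP90 in kinetochore assembly. Its first exon (ENSMUSE00000471447, chr14:79587691-79587866) held 81, 82, 59 and 82 counts in controls and 38, 25, 21 and 34 in cKO libraries, and usage fell from 4.84 ± 0.896% to 1.76 ± 0.228% (log2 usage change -1.43, SE 0.25, adjusted p = 8.2e-05). With last exons left out the adjusted p was 0.835. Cyb5r3 encodes NADH-cytochrome b5 reductase. Its first exon (ENSMUSE00000853549, chr15:83172112-83172592) fell in usage from 9.84 ± 2.44% to 2.74 ± 1.11% (log2 usage change -1.84, SE 0.34, adjusted p = 0.000277) and overlaps 1 other gene, whose reads cannot be told apart without strand.

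In Gpr149, Tll1 and Pgs1 the first exon fell further than the gene, which fell too. Gpr149 encodes an orphan receptor found in oocytes. Its first exon (ENSMUSE00000515388, chr3:62603593-62605140) held 165, 180, 271 and 128 counts in controls and 56, 51, 45 and 60 in cKO libraries, a usage of 14.1 ± 4.60% against 5.42 ± 0.212% (log2 usage change -1.38, SE 0.23, adjusted p = 6.6e-05). The gene's log2 fold change was -0.67 (SE 0.13) and that of the exon -2.02 (SE 0.25). Tll1 encodes a tolloid-like metalloprotease. Its non-coding first exon (chr8:64206107-64206271) took 33.6% to 45.4% of the gene's tested counts in controls and 11.7% to 19.3% in cKO libraries. The log2 usage change was -1.41 (SE 0.24, adjusted p = 4.54e-05). Pgs1 encodes a synthase on the path to cardiolipin, and its first exon (chr11:117986292-117987013) went from 19.5% to 39.8% to 6.21% to 8.86% (log2 usage change -1.70, SE 0.38, adjusted p = 0.00296).

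Hnrnpc, Sart1 and Mmp16 were the falls in which another exon of the gene rose. Hnrnpc encodes a nuclear protein that binds uridine tracts of pre-mRNA and is counted among the proteins whose access to RNA depends on m6A. Its non-coding first exon (ENSMUSE00000888002, chr14:52103889-52104028) held 260, 192, 256 and 267 counts in controls and 155, 160, 180 and 180 in cKO libraries, while the last exon held 1638 to 1989 against 3425 to 4131. First-exon usage fell from 11.0 ± 0.838% to 4.35 ± 0.377% (log2 usage change -1.35, SE 0.20, adjusted p = 2.68e-06). With last exons left out, the usage change was 0.14 and was not called. Sart1 encodes a protein of the spliceosomal tri-snRNP, and its first exon (chr19:5388315-5388703, overlapping 1 other gene) went from 48.6% to 80.2% of the gene's tested counts to 17.1% to 36.4% as an internal exon rose (log2 usage change -1.28, SE 0.29, adjusted p = 0.00271).

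**Figure D2:**
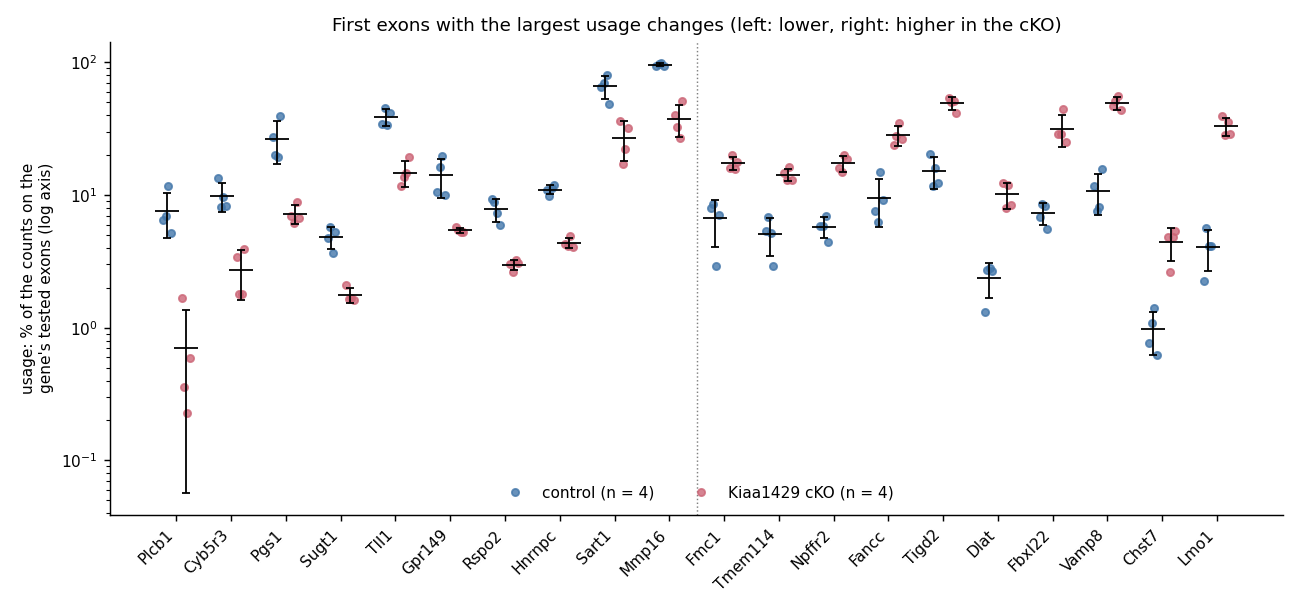
Usage of the 20 first exons named for the largest usage changes. The vertical axis, on a log scale, is the percent of the counts on the gene's tested exons, each point is a library, and bars are the mean and SD of 4 libraries; Plcb1, at the left, goes from 5.19% to 11.7% in controls to 0.227% to 1.66% in cKO libraries.

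In level, 269 first exons rose and 314 fell of 1328 tested, 20.3% and 23.6%, against 26.2% higher and 27.3% lower over all 14052 exons tested. The 1740 tested genes that hold these exons gave 427 higher and 487 lower, against 27.0% higher and 27.9% lower over all 10673 genes tested. Without scaling beyond the library total, which moves the median of all exons by 0.13 on the log2 scale, first exons gave 334 higher and 272 lower and the genes 549 higher and 381 lower. Last exons of protein-coding genes leaned the other way, with 2286 higher and 1385 lower of 6528, and internal exons gave 511 higher and 696 lower of 2698.

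Both ends of a gene could be compared in 918 pairs of a first exon and the gene's most counted tested last exon, in 902 genes. The median log2 fold change was 0.02 for the first exons and 0.09 for the last exons. In 146 pairs both rose and in 124 both fell. In 85 pairs only the first exon was called, in 181 only the last, and in 352 neither. The ends were called in opposite directions in 30 pairs, in 29 genes: the first exon fell and the last rose in 22, and the reverse held in 8. Both ends come from the same 8 libraries, so these counts describe the pairs and test nothing.

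The pairs with the widest opposite changes were picked after their values were seen. In Mmp16, the gene of a membrane-type matrix metalloproteinase, a first exon 81098 bases inside the gene (ENSMUSE00000841185, chr4:17933991-17934114) held 175, 252, 141 and 123 counts in controls and 26, 20, 16 and 50 in cKO libraries. Its last exon held 12, 8, 2 and 7 against 39, 41, 43 and 48, so the ends changed by -2.83 (SE 0.30) and 2.36 (SE 0.32). The main start of Fancc, described above, fell by -3.24, while the last exon rose from 3, 3, 3 and 4 counts to 17, 23, 21 and 16 (log2 fold change 2.34, SE 0.35).

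Zfp623, a zinc finger gene, held 32, 37, 23 and 21 counts on its first exon in controls and 14, 16, 21 and 21 in cKO libraries (log2 fold change -0.84, SE 0.26). Its last exon, where such genes keep their coding sequence, held 155, 166, 167 and 81 counts in controls and 1623, 1524, 1727 and 1948 in cKO libraries (log2 fold change 3.38, SE 0.20). In Psmf1, which encodes the proteasome inhibitor PI31, the first exon went from 20 to 25 counts to 2 to 6 and the last from 0 to 3 counts to 12 to 25. In Pcnx4, a gene of the pecanex family, the changes were -2.42 (SE 0.30) for the first exon and 1.33 (SE 0.20) for the last.

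The reverse pattern was seen in Htr5a and Sgms1. Htr5a encodes a serotonin receptor, and its first exon held 8 to 14 counts in controls and 16 to 25 in cKO libraries, while its last exon fell from 2523 to 3391 counts to 480 to 720 (log2 fold changes 0.75, SE 0.30, and -2.45, SE 0.16). In Sgms1, the gene of a sphingomyelin synthase, the first exon rose by 0.88 (SE 0.30) and the last fell by 2.17 on the log2 scale. Pairs were formed by gene, so the ends need not lie in the same transcript.

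**Figure D3:**
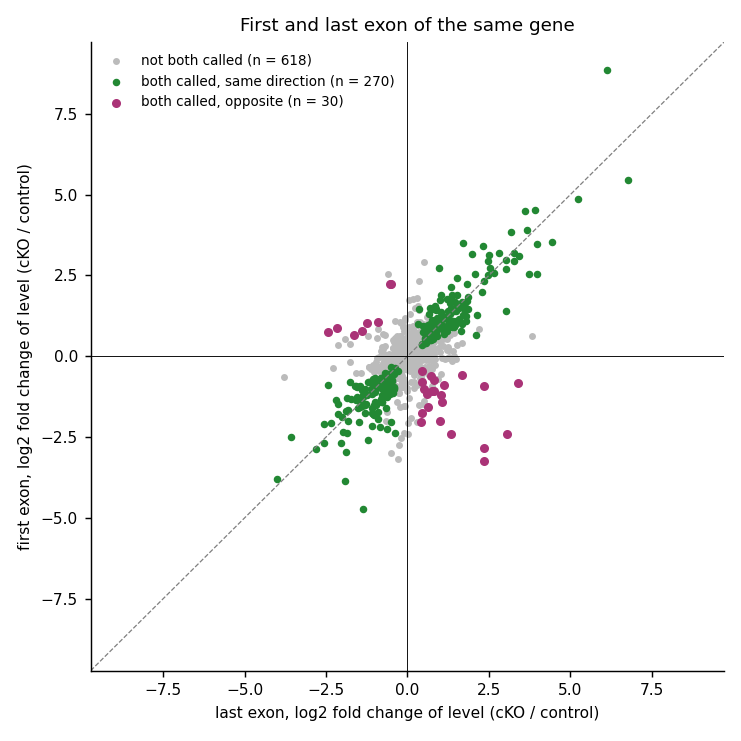
Log2 fold change of level, cKO over control, of the first exon (vertical) against the most counted tested last exon of the same gene (horizontal) in 918 pairs. Green points were called at both ends in the same direction (270), purple points in opposite directions (30), grey points were not called at both ends (618), and the dashed line marks equal change.

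Genes of m6A biology held 5 first exons among the 1913, for 5 of 23 genes listed (Zc3h13, Rbm15, Alkbh5, Ythdc2 and Hnrnpc). In usage, 4 were tested, none rose and 2 fell (Hnrnpc and Rbm15), with a median log2 usage change of -0.97 against 0.00 over all exons tested, of which 6.31% rose and 6.95% fell. The Hnrnpc change turned sign with last exons left out, as given above, and the Rbm15 call was lost in 10 of 16 alternatives. Rbm15 encodes an RNA-binding subunit of the writer complex, and most of its protein is encoded in its first exon (chr3:107330215-107333673, 2866 of 3459 bases coding). That exon held 86, 94, 73 and 50 counts in controls and 23, 22, 7 and 26 in cKO libraries. Only 572 of its bases lie in no other exon ID, and reads that met another were set apart as ambiguous. Its usage percent overlapped between groups, at 3.17% to 9.49% and 1.06% to 3.42% (log2 usage change -0.998, SE 0.33, adjusted p = 0.0414), and the call was lost without any 1 of control libraries 1 to 3 and without any 1 of the 4 cKO libraries. In level, 3 of the 5 exons fell and none rose, against 27.3% lower and 26.2% higher over all exons tested. The Rbm15 exon changed by -2.15 (SE 0.31) and the gene by -1.17 (SE 0.19).

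The other members of that list did not pass the usage test. Alkbh5, an m6A demethylase, had a usage of 0.168% to 2.81% in controls and 0.269% to 0.693% in cKO libraries (log2 usage change -0.95, SE 0.50, adjusted p = 0.341), with 271 of its 468 control counts in control library 3. Zc3h13, which anchors the writer complex in the nucleus, had 22.1 ± 4.25% and 23.6 ± 2.20% (log2 usage change 0.11, SE 0.19).

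The list of DNA methylation genes and genes known for oocyte or alternative starts held 5 first exons, of which 4 were tested for usage and none was called. Dnmt3c encodes a DNA methyltransferase known from male germ cells. Its first exon held 3, 2, 3 and 3 counts in controls and 33, 28, 30 and 29 in cKO libraries, and rose with the gene (log2 fold changes 3.21, SE 0.33, and 3.03, SE 0.28), so that its usage of 54.6 ± 17.5% and 57.2 ± 7.14% was not called. Obox5, an oocyte homeobox gene, fell in level (log2 fold change -0.78, SE 0.22) as did its gene (-0.52, SE 0.14). The more counted start of Zbed3, known for a maternal protein of the subcortical complex, held 320 to 407 counts in controls and 367 to 420 in cKO libraries, with no call. The Obox1 start held 5 to 15 counts per library and was not called.

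Of 20 imprinted genes listed, Grb10 and Plagl1 held a first exon with enough counts and only that of Plagl1 was tested. Plagl1 encodes a zinc finger transcription factor. Its first exon (ENSMUSE00001339599, chr10:13060504-13060859) held 419, 297, 256 and 418 counts in controls and 288, 267, 199 and 298 in cKO libraries, and its last exon 35, 29, 18 and 23 against 63, 106, 104 and 107. Usage was 91.1% to 94.8% in controls and 65.7% to 82.1% in cKO libraries without overlap, but was not called (log2 usage change -0.34, SE 0.18, adjusted p = 0.376). The level of the first exon fell by -0.59 (SE 0.18, adjusted p = 0.011) and that of the last rose by 1.66 (SE 0.24, adjusted p = 2.9e-05).

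Of the promoter recognition genes (TBP family, TFIIA, TFIIB and TAFs), 7 of 25 held a first exon, 4 were tested for usage and none was called, with a median log2 usage change of -0.16. Taf11 encodes a TFIID subunit. Its first exon held 114 to 145 counts in controls and 70 to 101 in cKO libraries and fell in level (log2 fold change -0.79, SE 0.18), as did the gene (-0.74, SE 0.16), at a usage of 62.3 ± 3.41% and 58.9 ± 5.73%. Taf7, another TFIID subunit, had a usage of 5.06 ± 0.342% and 5.24 ± 0.308%. Taf5, also a subunit of TFIID, varied between libraries of 1 group, from 17 to 92 counts in controls and 21 to 112 in cKO libraries. The cap list held 1 first exon (Eif4e), and the list of pause release and U1 snRNP genes 2 (Supt6 and Cdk12). None of these 3 was tested for usage. Supt6, which encodes an elongation factor, was tested for level and fell (log2 fold change -0.94, SE 0.30).

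The 5 most counted first exons, were not called for usage. Bcl2l10, a BCL2 family gene of oocytes, held 12932 to 19528 counts per library on its first exon. That exon took 39.8 ± 0.886% of the gene's tested counts in controls and 39.8 ± 0.628% in cKO libraries. Its level fell with the gene (log2 fold changes -0.38, SE 0.12, and -0.40, SE 0.12). Bmp15, the oocyte growth factor, went from 15.4 ± 0.728% to 18.9 ± 0.639%, which did not overlap between groups but was not called (log2 usage change 0.29, SE 0.18, adjusted p = 0.493), while its level fell (log2 fold change -1.04, SE 0.17). Zar1l, a relative of the maternal-effect gene Zar1, held 97.9 ± 0.291% and 96.9 ± 0.354% of its gene's tested counts on the first exon. Khdc1b, an oocyte KH-domain gene, had 15.0 ± 1.60% and 14.5 ± 0.825%, and Sap30, a Sin3 corepressor subunit, 85.0 ± 1.98% and 84.3 ± 1.83%.

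As a whole, first exons held the same part of their genes in both groups within the spread between libraries. The 1913 exons took 10.6% ± 0.590 of their genes' counts in controls and 10.8% ± 0.382 in cKO libraries (SD, n = 4 each; exact two-sided permutation test, p = 0.571, where the smallest p possible is 0.0286), and the groups overlapped. Without the 5 most counted exons the shares were 8.60% and 9.09% (exact p = 0.229). With last exons left out of the genes they were 52.3% and 54.1% (exact p = 0.2). All first exons of protein-coding genes held 3.82% and 3.87% of all counts. Last exons held 71.2 ± 0.778% in controls and 75.1 ± 0.620% in cKO libraries, with no overlap (exact p = 0.0286, 0.0857 after adjustment over the 12 library measures computed). Internal exons held 9.05% and 8.37% (exact p = 0.114). The part of this library-wide difference in the usage calls was not tested. Of the 1913 exons, 1868 to 1895 had at least 1 count in each control library and 1904 to 1910 in each cKO library.

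**Figure D4:**
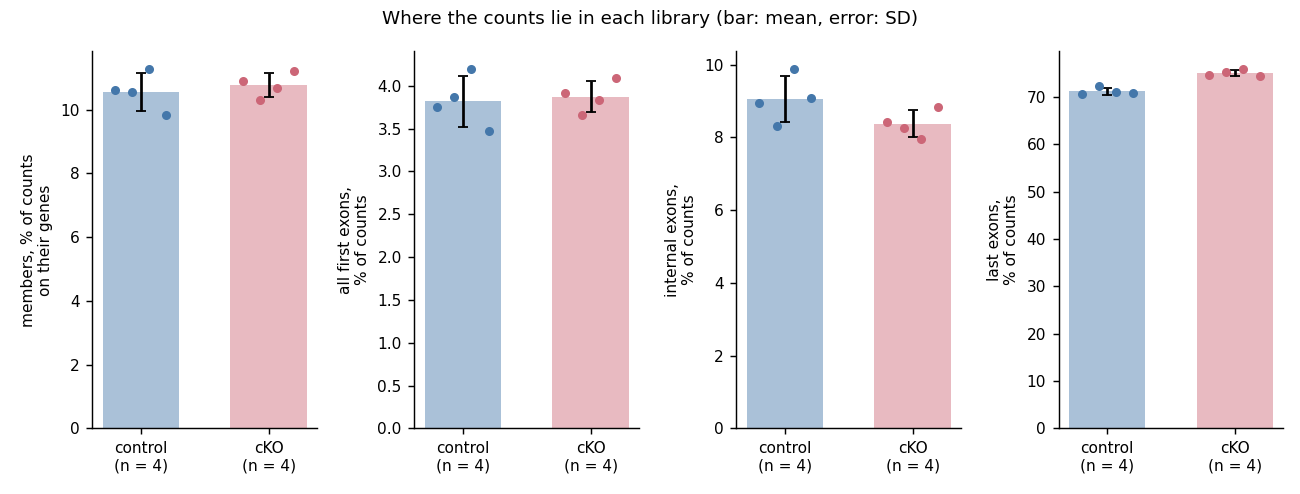
Percent of counts by exon position in each library: the 1913 first exons as a percent of the counts on their genes, and all first, internal and last exons of protein-coding genes as a percent of counts matched to the annotation. Bars are means of 4 libraries, error bars SD and points libraries; last exons are higher in every cKO library than in any control library, 74.5% to 75.8% against 70.6% to 72.3%.

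First exons whose usage changed were poorer in G, C and CpG than those not called. The median GC content was 54.2% in the 69 with lower usage, 59.8% in the 52 with higher usage and 63.3% in the 925 tested and not called. The CpG ratio, observed CpG over that expected from the base content, had medians of 0.531, 0.594 and 0.822 in the same order. A first exon without any coding base was found in 62.3%, 46.2% and 32.9%, and the gene's outermost start in 59.4%, 69.2% and 71.9%. Median totals were 179, 251.5 and 283 counts and median lengths 240, 359.5 and 286 bases, so the sets also differ in depth and length, and no test was made of these descriptions.

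GGGCGG lay within 100 bases of 36.7% of the starts with higher usage (11 of 30 with a RefSeq start), 35.3% of those with lower usage (6 of 17) and 44.3% of those not called (213 of 481). CCAAT was found in 26.7%, 23.5% and 25.8%, and TATAAA before 1, 0 and 15 of these starts. In the exons themselves, GGACT, which is 1 form of the m6A consensus, read on the transcribed strand only, occurred in 42.3% with higher usage, 31.9% with lower usage and 32.9% of those not called, or 1.16, 1.12 and 1.24 times per kilobase. Among all 83030 annotated first exons, which are shorter (median 156 against 278 bases), 21.9% held it.

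**Figure D5:**
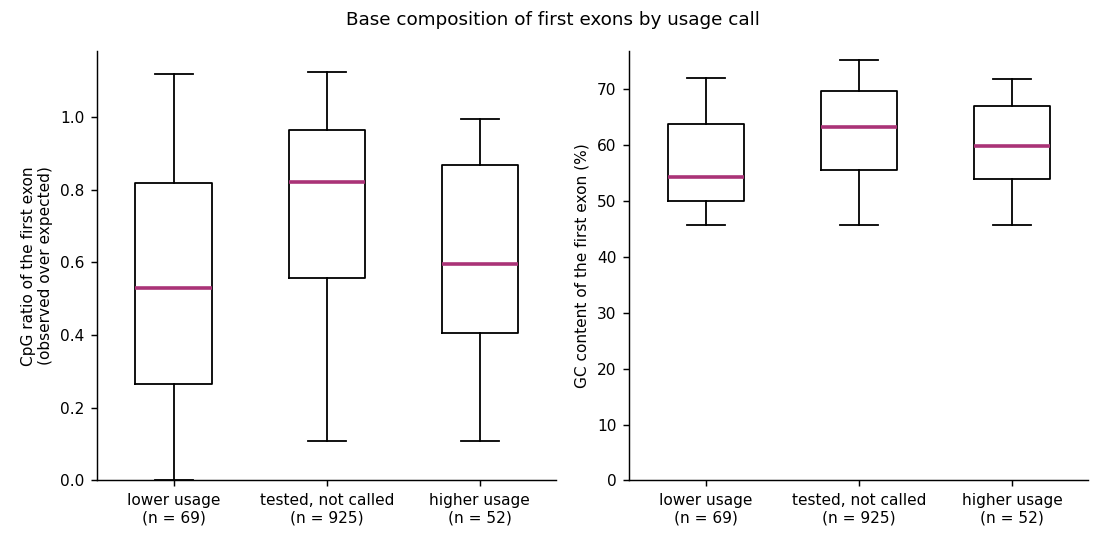
CpG ratio (left) and GC content in percent (right) of the 1046 first exons tested for usage, by call. Boxes give the quartiles, the line the median and whiskers the 5th and 95th percentile; the medians of GC content are 54.2% for lower usage, 63.3% for not called and 59.8% for higher usage.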

How the data were processed

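Each deposited table holds raw read counts per exon ID of 1 library, without normalization. The submitters' processing notes name STAR, HTSeq and mm10. Versions, options and the annotation release are not stated there. RNA was primed with oligo-dT, template-switched, amplified and tagmented, per the labels' protocols, which does not mark strand.

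Exon IDs were matched to GENCODE M21 by ID, versions ignored: 494230 (99.6%) matched, and the 2058 others held 0.252% of counts and were left out. Summary rows that name no exon stayed out of library sizes and tests. An exon was called first, internal or last where it had that place in every multi-exon transcript holding it. The whole exon table was filtered with filterByExpr (minimum count 10), scaled by TMM and fitted with the quasi-likelihood model of edgeR 4.0.16 (R 4.3.3), group being the only term. The filter can keep an exon through the counts of 1 group alone. Level used glmQLFTest and usage diffSpliceDGE, with exons grouped by gene or, between starts, by gene and position. Gene sums were fitted alike. Tests are two-sided, with Benjamini-Hochberg adjusted p over all features tested and a threshold of 0.05. Library values were compared by an exact permutation test over 70 arrangements. The level and usage tests were tested on simulated data. Where the simulated fold was 1.5, the level test called 6.35% (n = 63) and the usage test 1.59% (n = 63). With a fold of 2 they called 32.3% (n = 65) and 17.2% (n = 64). With a fold of 4 they called 98.3% and 75.9% (n = 58 each). False calls numbered 7 among 13541 tested for level and 8 among 6525 for usage. An exon that was not called can therefore not be taken as unchanged. SE and SD values include the scatter between libraries, while the floor of 3 counts covers counting error only.

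Named exons are the 10 largest usage changes in each direction among called exons with 200 or more counts, no overlap between groups and an official symbol, the starts called against each other, up to 4 exons per gene list and the 5 most counted. The exons and lists were chosen with earlier results of these data known. Alternatives were RLE, upper-quartile and no scaling, other filters, each library left out, a replicate block, limma voom (limma 3.58.1), DESeq2 1.42.0, last exons left out, and only exons with 80 or more counts, 150 or more bases free of other exon IDs or no overlapping gene. The share without the 5 most counted exons was added after seeing the data. No genome sequence was used. Exon sequences came from the GENCODE transcripts and promoters from RefSeq.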

Additional observations from a re-analysis of the deposited data

Results flagged for a closer look

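In 112 groups of 4 libraries, 1 per named exon and group, 4 had a library whose usage lay far from the other 3. Chance gives about 1 in 20. Control library 1 had 1.32% usage of the Dlat first exon, below the other controls. In Sugt1, cKO library 1 had 2.10%, above the other cKO libraries. In Taf5, cKO library 4 had 10.9%, above the others of its group. For Sap30, control library 4 had 82.1%, below the other controls. Outside the counts on exons, ambiguous reads made up 79.3% in cKO libraries, above the 73.8% in controls and without overlap between the groups. The total is the reads counted for an exon ID, ambiguous or outside every exon ID.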

How the results depend on the processing

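The number of first exons called for first exon usage, 121, was 73 with a minimum count of 20 and 44 (25 higher, 19 lower of 444 tested) with last exons left out, where fewer exons were tested. For between first exons, limma voom called 24 in place of 13. Leaving out 1 library at a time gave 106 to 157 calls for first exon usage, 540 to 663 for first exon level, 10 to 14 for between first exons and 816 to 931 for gene level of genes with first exons. Without control replicate 3 the usage split was 79 higher and 78 lower, and with 150 or more countable bases the level split was 248 higher and 226 lower. The difference in first exon share of gene counts ranged from -0.0352 to 0.446 percentage points over these sets, and was -0.0352 without control replicate 4. Same-numbered libraries did not deviate together (correlations -0.043 to 0.096), so the numbers were not taken as pairs. With a replicate block the calls were 120 for usage, 575 for level, 13 between starts and 903 for genes.

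Some usage changes turned sign, all of them uncalled in the main result except Hnrnpc, and the cause was not tested. With 1 library left out at a time, the log2 usage change ranged from -0.118 to 0.0441 for the downstream Chek1 exon, -1.36 to 0.0502 for Alkbh5, -0.134 to 0.323 for Dnmt3c, -0.490 to 0.309 for Taf4b, -0.0115 to 0.0164 for Bcl2l10 and -0.114 to 0.0226 for Khdc1b. With limma voom the Chek1 exon had 0.0712. With last exons left out, Hnrnpc had 0.14 (-1.35 and called in the main result), Zbed3 -0.0149, Khdc1b 0.00093 and the downstream Pid1 exon 0.88 (adjusted p = 0.0447, uncalled in the main result). Under that alternative the usage calls of Npffr2, Sugt1, Skap1, Lipt1 and the main Fancc start were lost, and the cause was not tested. Chst7, Fbxl22, Dlat, Tigd2, Tmem114, Cyb5r3, Gpr149 and Mmp16 could not be tested under it, as their only other tested exon was a last exon. The Tll1 exon was not tested under it either. The main Fancc call was also lost without cKO replicate 3 and with a minimum count of 20, and Rbm15 was lost in 10 of 16 alternatives. The depth limits exons near 40 counts.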
